A study of Mus musculus with 12 samples.

Results

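The transcripts described here are those of 9 channels that turn touch, heat, cold, chemicals and acid into current, in sensory neurons and in other cells. They are Piezo1 and Piezo2, the acid-sensing channel Asic3, and 6 members of the transient receptor potential (TRP) family, Trpv1, Trpv2, Trpv4, Trpa1, Trpm3 and Trpm8. They were taken by name from a table of 54532 genes, in which each name occurred once, and all 9 passed the filter on low counts. In a dorsal root ganglion the somata of trunk and limb sensory neurons lie among glia, vessels, macrophages and sheath cells. All RNA came from C57BL/6 mice treated with D-alanine. The genotype of the 6 control libraries is CDH5-Cre, a Cre recombinase named after Cdh5, the cadherin gene of vessel endothelium. The genotype of the 6 DAAO libraries is DAAO-TGCdh5, which joins the same gene name to D-amino acid oxidase, an enzyme that turns D-alanine into products that include hydrogen peroxide. Cre appears only in the sample names of the DAAO group and not in its genotype, so whether the groups also differ in Cre cannot be told apart from the oxidase. The sources used here do not give age or the number of animals in a library.

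Piezo channels open when the membrane is stretched. Piezo2 serves gentle touch and limb position in sensory neurons, and Piezo1 is best known from vessels and blood cells. TRPV1 opens to heat, capsaicin and acid, TRPM8 to cold and menthol, and TRPM3 to heat and some steroids. TRPA1 opens to reactive chemicals, hydrogen peroxide among them. ASIC3 carries current when muscle or skin turns acid.

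Each library held between 13227518 and 23884927 counts. The neuronal identity of the tissue was checked with 14 pan-neuronal markers, which were all tested and summed to between 10059 and 18611 CPM (reads of a gene scaled to a common library size after normalisation) in every library. The list leaned lower in DAAO, with 10 of 14 negative, a median log2 fold change of -0.20 and 1 gene that fell, Snap25, a synaptic vesicle fusion protein (-0.61 ± 0.14 SE, edgeR adjusted p = 0.0498; named after its values were seen). Transcripts of 5 oligodendrocyte markers, which a peripheral ganglion should lack, summed to between 13.5 and 2272 CPM in controls and 86.5 and 623 CPM in DAAO. Skeletal muscle markers, 9 genes of which 1 was at 0 throughout, summed to between 14.3 and 2443 CPM in controls and 10.9 and 411 CPM in DAAO. Mitochondrially encoded genes took 4.05% to 7.65% of counts in controls and 3.32% to 5.13% in DAAO. Control 2 stood apart, with the highest oligodendrocyte level of the 12 libraries. In 5 libraries both Xist and 4 Y-linked genes were above 10 CPM, so n = 6 counts libraries and not animals. Since no label states that libraries came from separate animals, the p-values speak only to the spread among these libraries, which may be technical.

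None of the 9 channel genes passed the test between DAAO and control ganglia. Piezo1 had by far the largest fitted difference, a mean of 3.28 ± 2.08 CPM in controls and 8.22 ± 3.67 CPM in DAAO (SD, n = 6), and it did not pass (adjusted p = 0.228, edgeR's quasi-likelihood test). Among the 5 members most abundant per kilobase the fitted log2 fold changes were 0.25 for Trpv1, 0.08 for Asic3, -0.04 for Piezo2, 0.03 for Trpa1 and 0.11 for Trpv2. Of the 9 members 0 passed at an adjusted p under 0.05 with edgeR, DESeq2 or limma-voom, and 1, Piezo1, had an unadjusted p under 0.05 (0.00718, edgeR). Over the 17002 genes tested 0.753% passed (0.506% higher and 0.247% lower in DAAO), and 10.3% had an unadjusted p under 0.05. The 2 groups overlapped in CPM for all 9 members, where 1.45% of genes tested did not overlap. Fitted log2 fold changes were above 0 in 7 members and below 0 in 2, with a median of 0.11, beside a median of 0.00 and 50.4% positive over all genes tested. In whole ganglia, fewer cells of a type and less RNA per cell cannot be told apart.

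**Figure D1:**
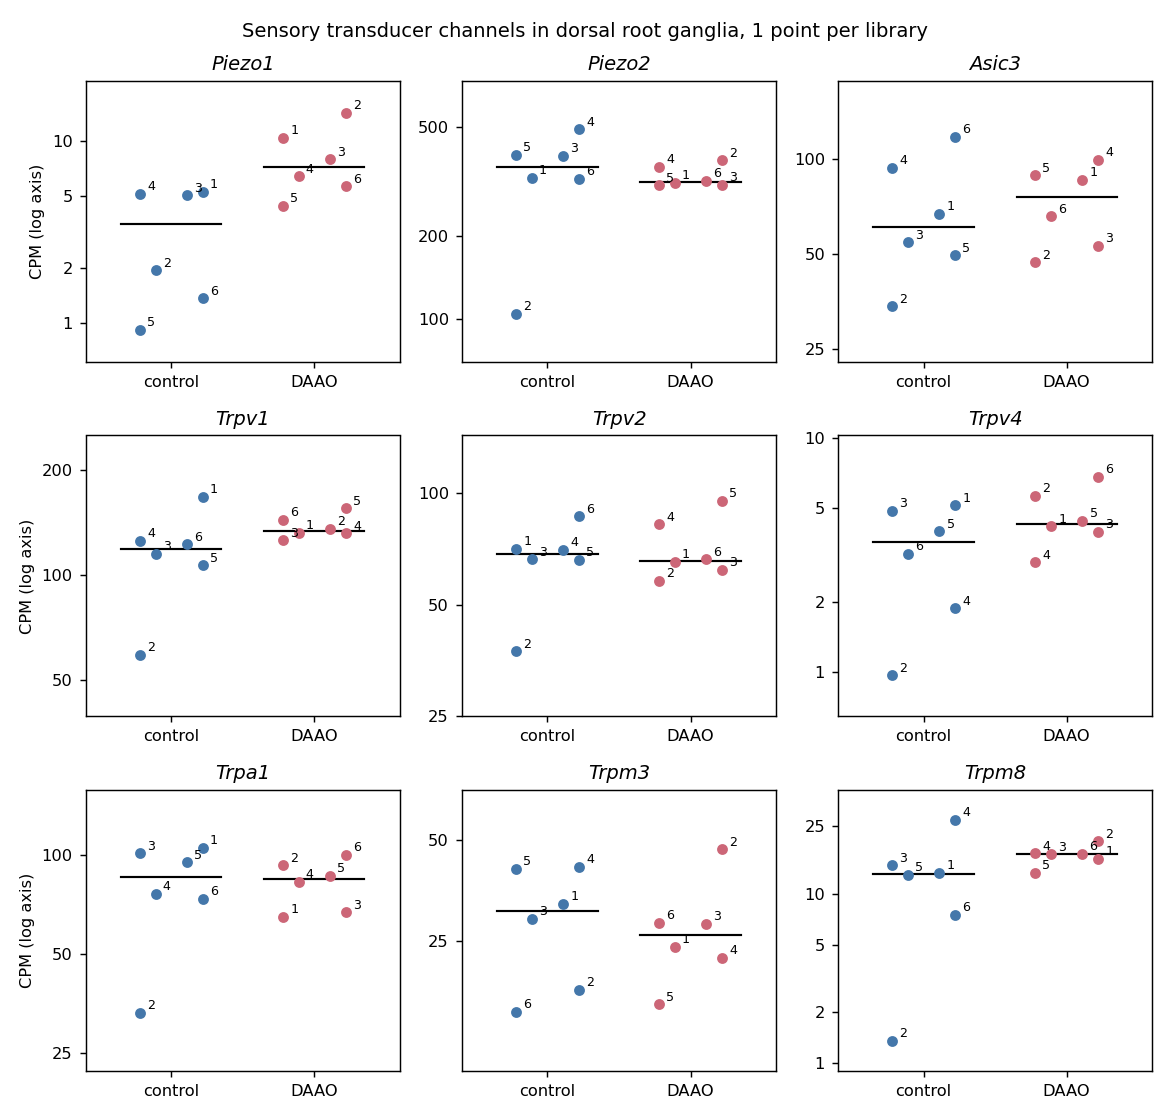
CPM of each channel gene on a log axis, with 1 point per library, its replicate number beside it, and the group median as a black line (6 control libraries in blue, 6 DAAO libraries in red). Control 2 is the lowest point in 7 of the 9 panels, and only in the Piezo1 panel do most DAAO libraries, 5 of 6, lie above the highest control.

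Piezo1 (ENSMUSG00000014444; chromosome 8, 122481698 to 122551329, GRCm38) had between 0.909 and 5.27 CPM in controls, with a median of 3.49, and between 4.42 and 14.4 CPM in DAAO, with a median of 7.20. All 6 DAAO libraries lay above the control median and 5 of them above the highest control. The groups met only where DAAO 5, at 4.42 CPM, fell below the 3 highest controls, and controls 5 and 6 were lowest with 18 and 17 counts. The fitted log2 fold change was 1.32 ± 0.43 (SE), or 2.49-fold with a 95% interval from 1.33 to 4.68. It ranked 534 of 17002 genes by p. It rested on few reads, 377 counts over the controls and 903 over the DAAO libraries. The adjusted p lay between 0.0933 and 0.549 over 27 alternative settings, and the log2 fold change between 0.94 and 1.49.

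Piezo1 shares 2441 exon bases with Ctu2, a gene of transfer RNA modification on the opposite strand, in the GENCODE M21 annotation of GRCm38. The sources used here do not say whether counting used strand, so some reads of either gene may have been assigned to the other or set aside. Ctu2 had 13.1 ± 3.45 CPM in controls and 13.5 ± 2.50 in DAAO (SD, n = 6), a log2 fold change of 0.04 ± 0.19 (SE, edgeR adjusted p = 0.975). Its lowest, median and highest values were 9.74, 12.3 and 19.4 CPM in controls and 11.6, 12.5 and 18.2 CPM in DAAO. Controls 5 and 6, where Piezo1 was lowest, had 13.6 and 19.4 CPM of Ctu2.

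Markers of other cell types that may hold Piezo1 are given beside it. Of 11 endothelial markers 0 changed with edgeR and 1 had an unadjusted p under 0.05; their median log2 fold change was 0.07, and they summed to between 165 and 221 CPM in controls and 135 and 266 CPM in DAAO. With their level per library as a term the log2 fold change of Piezo1 was 1.32. Of 10 macrophage markers 0 changed over all genes with edgeR and 5 had an unadjusted p under 0.05; 9 of the 10 were positive, with a median of 0.80. Cd68, a lysosomal protein of macrophages, named after its values were seen, was higher in all 6 DAAO libraries than in any control (log2 fold change 2.56 ± 0.60 SE); it missed the threshold with edgeR (adjusted p = 0.0902) and passed with DESeq2. The 10 markers summed to between 44.3 and 325 CPM in controls and 135 and 529 CPM in DAAO. Of 9 fibroblast and nerve sheath markers 0 changed, and 0 had an unadjusted p under 0.05, with edgeR; 8 of the 9 were positive, with a median of 0.47, and they summed to between 765 and 3653 CPM in controls and 1723 and 3841 CPM in DAAO. With the macrophage level as a term the log2 fold change of Piezo1 was 1.43, and with the fibroblast level it was 1.33 (edgeR adjusted p = 0.257, 0.270 and 0.270 in these 3 fits). It was smaller, 1.12 and 1.24, with the pan-neuronal and oligodendrocyte levels as terms (edgeR adjusted p = 0.384 and 0.267). The endothelial and macrophage terms were chosen after seeing the data. Of 7 myelinating Schwann cell markers 0 changed with edgeR and 1 did with DESeq2. All 7 were negative, with a median of -0.50, and 6 had an unadjusted p under 0.05, where 10.3% of genes tested did. Of 8 pericyte and smooth muscle markers 0 changed with edgeR, 2 were positive and 6 negative, with a median of -0.11. Neither list was fitted as a term. None of these markers was at 0 in all libraries. The part of any cell type in the Piezo1 values was not tested.

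The 250 bases before the RefSeq start of Piezo1 and of Trpv1 are printed because they lie far apart in CpG content, Piezo1 having the most CpGs of the members' windows and Trpv1 being the member most abundant per kilobase. Both are on GRCm38.p6 and written 5′ to 3′ on the gene's strand, with each CpG in capitals.
Piezo1, chr8:122551330-122551579, minus strand: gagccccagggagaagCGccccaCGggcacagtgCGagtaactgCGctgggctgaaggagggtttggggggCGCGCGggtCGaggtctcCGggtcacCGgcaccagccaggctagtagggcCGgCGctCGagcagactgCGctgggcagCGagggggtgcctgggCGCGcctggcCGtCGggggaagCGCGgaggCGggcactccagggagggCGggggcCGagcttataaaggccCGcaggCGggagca
Trpv1, chr11:73233899-73234148, plus strand: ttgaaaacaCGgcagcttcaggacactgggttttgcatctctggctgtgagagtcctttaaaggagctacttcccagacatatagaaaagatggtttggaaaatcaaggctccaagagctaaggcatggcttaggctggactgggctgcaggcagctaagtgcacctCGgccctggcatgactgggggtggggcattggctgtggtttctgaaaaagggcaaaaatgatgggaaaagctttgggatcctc
The Piezo1 stretch held 26 CpGs and 74.0% G or C, and 9.60% of 32817 promoter windows of this length held as many CpGs. The Trpv1 stretch held 2 CpGs and 50.8% G or C, and 81.2% of windows held as many. Of the other 5 members in the table, Trpv4 had 22 CpGs and Trpm3 had 17 and 9 at its 2 starts. Asic3 had 5, Trpv2 had 2, 2 and 5 at its 3 starts, and Trpm8 had 1. Over all windows the median was 6 CpGs and 52.4% G or C. The letters TATAAA on either strand were found once each in the windows of Piezo1 and Trpm8 and in 12.4% of all windows. The letters GGGCGG on either strand were found once in Piezo1, 2 times in Trpv4, and in 32.7% of all windows. The antioxidant response letters TGACNNNGC on either strand were found in none of the members' windows and in 10.2% of all windows. These matches describe letters in the windows and say nothing of what binds there. Piezo2 and Trpa1 had no entry.

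Piezo2 (ENSMUSG00000041482, chromosome 18), the touch and position channel, was the member with most reads, 37986 counts over the controls and 36846 over DAAO. Controls ranged from 105 to 489 CPM with a median of 359, and DAAO from 306 to 378 CPM with a median of 315. Control 2 was far below the other 11 libraries, of which the lowest had 306 CPM. Apart from control 2 the lowest control had 323 CPM. DAAO 2 and 4 lay within the range of those controls, and DAAO 1, 3, 5 and 6, from 306 to 319 CPM, lay below it. The log2 fold change was -0.04 ± 0.25 (SE), with a 95% interval from 0.676-fold to 1.41-fold (edgeR adjusted p = 0.987). Without control 2 the control mean was 385 ± 67.7 CPM (SD, n = 5) beside 330.0 ± 30.6 in DAAO (n = 6), and the log2 fold change was -0.22 (adjusted p = 0.445). The 4 markers of C-fibre low-threshold mechanoreceptors went both ways, 2 positive and 2 negative, from -0.07 to 0.54 with a median of 0.09. With edgeR 0 of them changed. The 9 markers of proprioceptors and A-fibre mechanoreceptors, neurons that use Piezo2, were all negative, from -2.10 to -0.01 with a median of -0.68. Of these, 4 fell over all genes tested, Runx3, Etv1, Whrn and Calb1, named after their values were seen, where 0.247% of genes tested fell. These lists overlap with ones chosen on these libraries before, so this count is not independent of them. Their part in the Piezo2 values was not tested.

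Asic3 (ENSMUSG00000038276; chromosome 5, 24413392 to 24417835), the acid channel, had from 34.1 to 117 CPM in controls, with a median of 60.6, and from 47.0 to 99.4 CPM in DAAO, with a median of 75.7. The groups overlapped almost throughout, and the highest library of all was control 6. Its log2 fold change was 0.08 ± 0.27 (SE, edgeR adjusted p = 0.968), with a 95% interval from 0.704-fold to 1.59-fold. With some marker levels as terms it was larger, 0.53 with the pan-neuronal, 0.54 with the fibroblast and 0.75 with the macrophage level (edgeR adjusted p = 0.119, 0.128 and 0.0700). It was 0.23 with the oligodendrocyte and 0.08 with the endothelial level (edgeR adjusted p = 0.727 and 0.972). The macrophage and endothelial terms were chosen after seeing the data. The part of these cells in the Asic3 values was not tested.

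None of the 3 vanilloid channels passed the test. Trpv1 (ENSMUSG00000005952; chromosome 11, 73234292 to 73261242), the heat and capsaicin channel, had from 58.8 to 167 CPM in controls, with a median of 118, and from 126 to 155 CPM in DAAO, with a median of 134. All 6 DAAO libraries lay above the control median but none above control 1. The log2 fold change was 0.25 ± 0.18 (SE, edgeR adjusted p = 0.703), with a 95% interval from 0.917-fold to 1.53-fold, and it was 0.12 without control 2. Trpv2, a channel of large sensory neurons, macrophages and muscle, had from 37.5 to 86.7 CPM in controls, with a median of 68.5, and from 58.0 to 95.6 CPM in DAAO, with a median of 65.8. Only DAAO 5 exceeded the highest control, and the log2 fold change was 0.11 ± 0.17 (adjusted p = 0.908). Trpv4, a channel of osmotic and warm stimuli found in many epithelia and vessels, was scarce. It had from 0.971 to 5.16 CPM in controls, with a median of 3.60, and from 2.94 to 6.82 CPM in DAAO, with a median of 4.30. The 5 DAAO libraries above the control median and the wide controls gave a log2 fold change of 0.48 ± 0.37 (SE, edgeR adjusted p = 0.743), with an interval from 0.807-fold to 2.40-fold.

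Trpa1 (ENSMUSG00000032769; chromosome 1, 14872648 to 14918862), the channel that peroxide can open, had from 33.1 to 105 CPM in controls, with a median of 85.5, and from 64.9 to 100.1 CPM in DAAO, with a median of 84.6. The DAAO libraries divided evenly around the control median, 3 above and 3 below. The log2 fold change was 0.03 ± 0.22 (SE, edgeR adjusted p = 0.988), and the 95% interval ran from 0.743-fold to 1.40-fold.

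The melastatin members differed from each other mainly in how much they varied. Trpm8 (ENSMUSG00000036251; chromosome 1, 88277661 to 88389293), the cold and menthol channel, had from 1.35 to 27.3 CPM in controls, with a median of 13.1, and from 13.2 to 20.4 CPM in DAAO, with a median of 17.1. Control 2 held 25 counts and control 4 held 583, so the controls spanned a 20.2-fold range, against 1.54-fold in DAAO. The log2 fold change was 0.39 ± 0.44 (SE, edgeR adjusted p = 0.861), with an interval from 0.679-fold to 2.53-fold. It was 0.15 without control 2 and -0.02 without controls 2 and 6. Trpm3, a heat channel of nociceptors, had from 15.5 to 41.6 CPM in controls, with a median of 30.7, and from 16.2 to 46.8 CPM in DAAO, with a median of 26.1. It was below the control median in 5 of 6 DAAO libraries, but DAAO 2 was the highest of all 12. Its log2 fold change was -0.10 ± 0.27 (SE, edgeR adjusted p = 0.959).

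**Figure D2:**
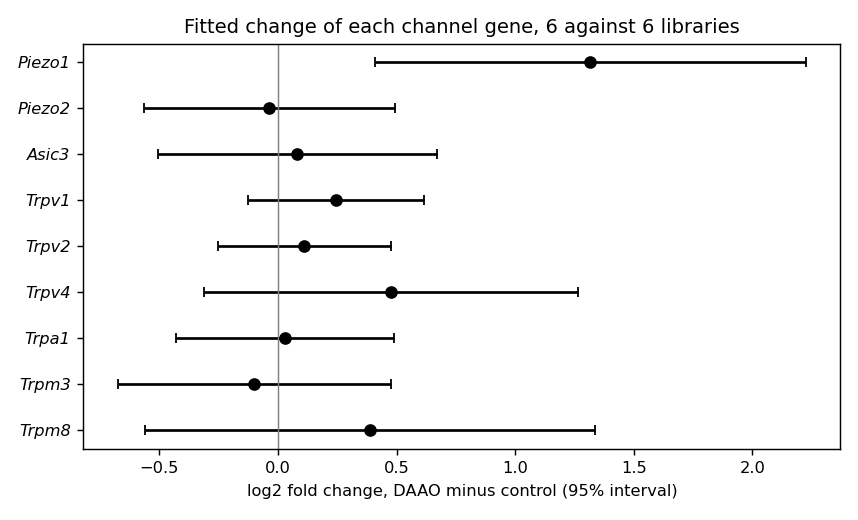
Fitted log2 fold change of each channel gene (DAAO minus control, 6 libraries a group) with its 95% interval. The intervals of 8 genes include 0, and that of Piezo1 runs from 0.41 to 2.23 with an adjusted p of 0.228 over all genes tested by edgeR.

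Levels of different genes were compared as CPM per kilobase of the deposited gene length, as a mean over the 12 libraries. Trpv1 stood highest with 34.4, followed by Asic3 with 29.4, Piezo2 with 22.9, Trpa1 with 19.1 and Trpv2 with 15.4 CPM per kilobase. Each of these lay above the next in 9 of 12 libraries, so neighbours in this order were not separated beyond their spread. Trpv2 lay above Trpm3 (3.55) and Trpm8 (3.14) lay above Trpv4 (0.983) in 12 of 12 libraries. Trpm3 lay above Trpm8 in 6 of 12. Piezo1 was lowest, with 0.579 CPM per kilobase, below Trpv4 in 9 of 12 libraries. By group, controls first, the CPM per kilobase was 0.330 ± 0.209 and 0.827 ± 0.369 for Piezo1, and 23.2 ± 8.90 and 22.7 ± 2.10 for Piezo2 (SD, n = 6). The deposited length equals the summed exon length of GENCODE M21 in 7 members. It is shorter in Piezo2 (14566 against 17162 bases) and Trpm3 (8061 against 24437 bases). With the longer lengths Piezo2 would stand at 19.5 and Trpm3 at 1.17 CPM per kilobase, and Trpm3 would then fall below Trpm8.

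Control 2 was low in most of these genes. It was the lowest of the 12 libraries in 7 of 9 members, all but Piezo1 and Trpm3, where 20.0% of genes tested were lowest there. In 6 members it lay at least 1 log2 unit below the median of the other controls, where 10.2% of genes tested did. This difference was -3.20 log2 units in Trpm8, -1.93 in Trpv4, -1.90 in Piezo2, -1.52 in Trpa1, -1.33 in Piezo1 and -1.05 in Trpv1. Against the other controls the mean level of marker lists in control 2 differed by -1.42 log2 units for 7 non-peptidergic nociceptor markers, -0.45 for 7 peptidergic ones, -0.43 for 14 pan-neuronal ones and -0.33 for 9 of proprioceptors and A-fibre mechanoreceptors. In the same library 5 oligodendrocyte markers stood 4.19 higher, the 8 tested skeletal muscle markers 2.94, 10 macrophage markers 1.47, 9 fibroblast markers 1.19 and 5 satellite glia markers 1.08. Muscle was not highest there: its level, centred on the 12 libraries, was 4.70 in control 4, 3.12 in control 5 and 2.34 in control 2. The part of these other cells in the low channel values was not tested.

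**Figure D3:**
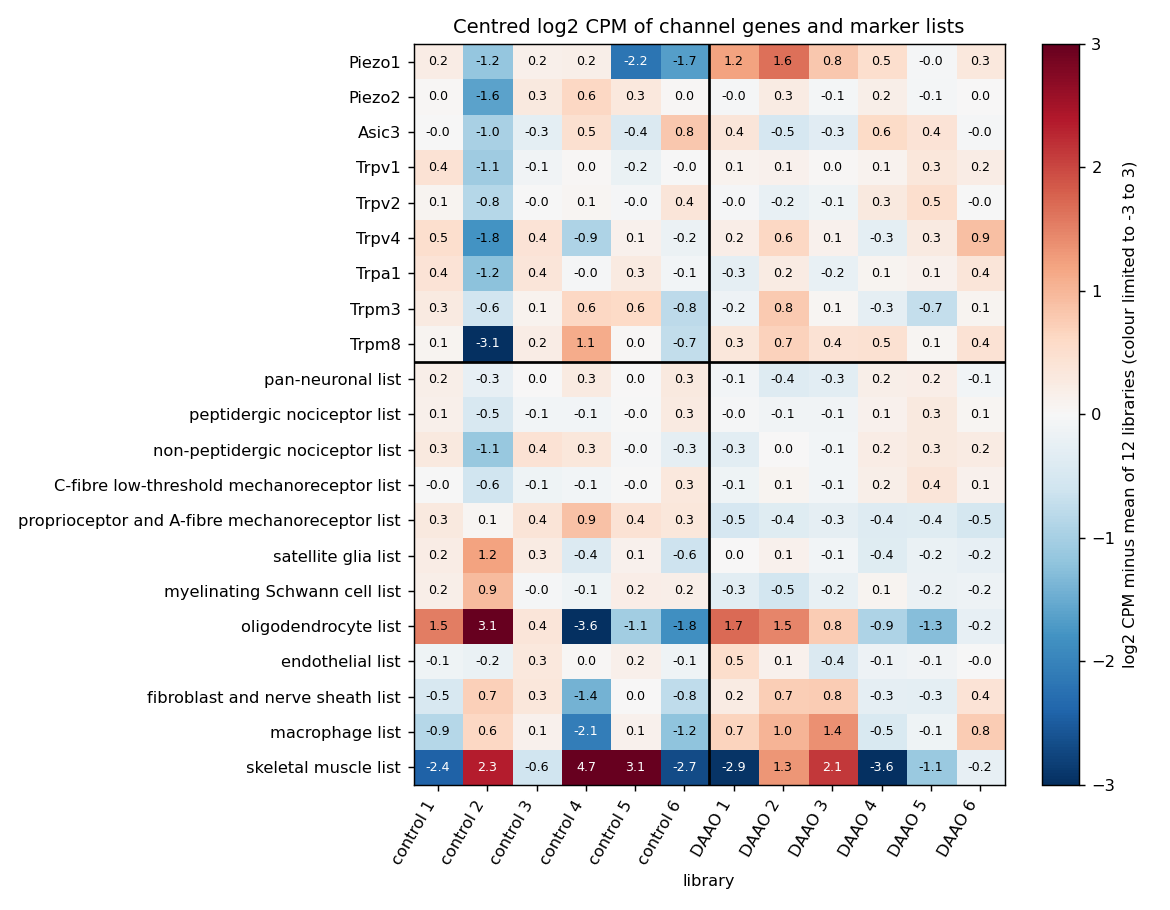
Log2 CPM of each channel gene, and the mean of each marker list, centred on the mean of the 12 libraries and printed in each cell (blue low, red high, colour limited at -3 and 3). The column of control 2 is low in every channel gene and in the nociceptor lists, and high in the oligodendrocyte, muscle, macrophage and glia lists.

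The spread between libraries, as the coefficient of variation of CPM, was larger in controls than in DAAO for 9 of 9 members, where 78.8% of genes tested showed that order. It was 38.3% against 9.26% for Piezo2, 30.2% against 7.68% for Trpv1 and 67.2% against 13.7% for Trpm8. Trpm3 was nearly equal, with 37.54% in either group. Without control 2 the order held in 6 members, and in 71.2% of genes tested. The control values were then 17.6% for Piezo2, 18.5% for Trpv1 and 48.3% for Trpm8, and Trpv2, Trpa1 and Trpm3 had the larger value in DAAO. The medians over all genes tested were 28.7% in controls, 25.5% in controls without control 2 and 18.8% in DAAO.

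**Figure D4:**
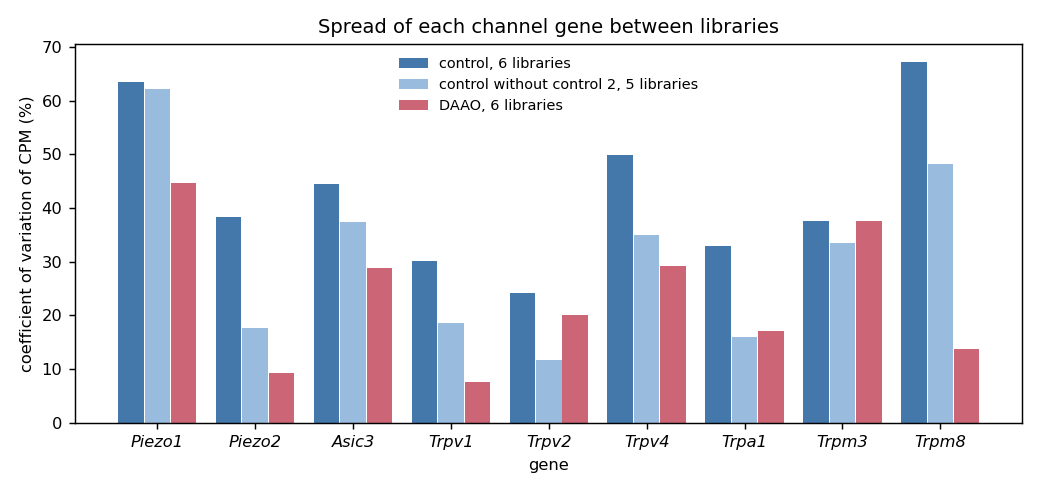
Coefficient of variation of CPM in percent for each channel gene, in the 6 control libraries, the 5 controls without control 2, and the 6 DAAO libraries. Bars start at 0, and those of Piezo2, Trpv1 and Trpm8 stay lower in DAAO, at 9.26%, 7.68% and 13.7%, also when control 2 is left out.

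Relative levels within a library do not depend on library size, and 4 pairs of members were compared in this way as differences of log2 CPM. Piezo2 exceeded Piezo1 by between 5.67 and 8.61 log2 units in controls and by between 4.71 and 6.08 in DAAO. Controls averaged 6.80 ± 1.15 and DAAO libraries 5.41 ± 0.55 (SD, n = 6), and all 6 DAAO libraries lay below the control median. The difference of -1.38 ± 0.52 (SE) had an exact two-sided permutation p of 0.0152, and 0.0606 adjusted over the 4 pairs. It passed without control 2 (-1.61, exact permutation adjusted p = 0.0173) and, chosen after seeing the data, without controls 2 and 6 (-1.41, exact permutation adjusted p = 0.0381). In the other 13 of 15 alternatives it did not pass, and the adjusted p reached 0.165 without DAAO 1, 2 or 3. Control 2 had the lowest control difference, 5.67, so leaving it out moved the controls away from DAAO. The pairs join members chosen with earlier results of these data known, and an adjustment over 4 pairs does not cover that choice. Over all genes tested neither gene passed (edgeR adjusted p = 0.228 for Piezo1 and 0.987 for Piezo2). Trpa1 against Trpv1, both found in nociceptors, differed by -0.55 ± 0.30 in controls and -0.75 ± 0.21 in DAAO. Trpv2 against Trpv1 differed by -0.78 ± 0.25 and -0.96 ± 0.22, and the cold channel Trpm8 against Trpv1 by -3.53 ± 1.08 and -3.02 ± 0.28. These 3 pairs did not pass (exact permutation p = 0.214, 0.221 and 0.316 in that order, two-sided, n = 6 a group; adjusted 0.294, 0.294 and 0.316). The smallest p that 6 against 6 libraries allow is 0.00216.

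**Figure D5:**
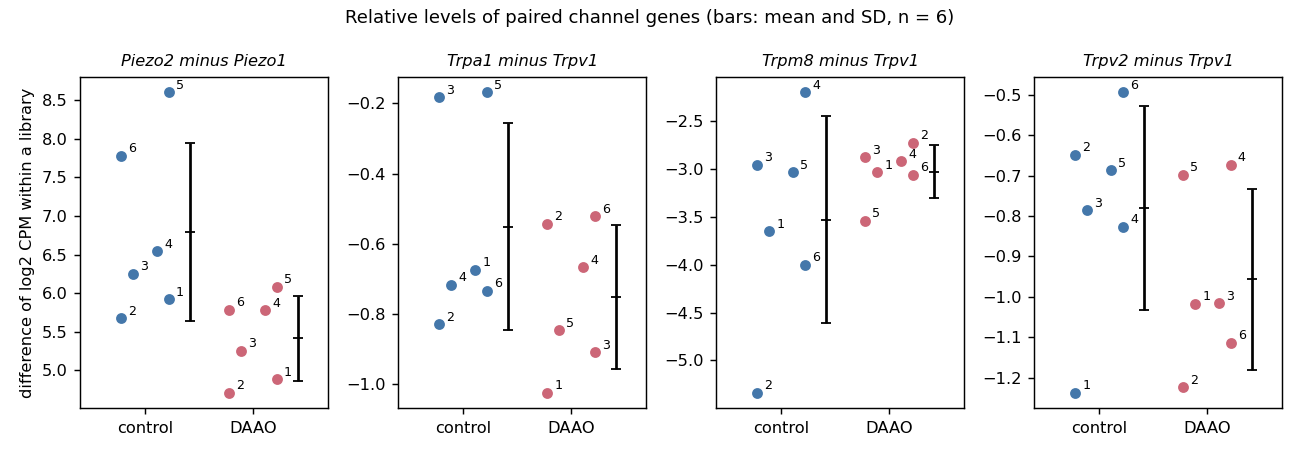
Difference of log2 CPM between 2 channel genes within each library, for 4 pairs, with 1 numbered point per library (control blue, DAAO red) and bars for mean and SD (n = 6). The axes do not start at 0 and differ between panels; the Piezo panel has all 6 DAAO points below the control median, with overlap from 5.67 to 6.08.

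Other genes of the same systems were examined as 4 lists, and 1 gene in them changed. Of 22 other TRP channels 18 were tested and 0 changed with edgeR, 2 had an unadjusted p under 0.05, and the median log2 fold change was -0.09. Mcoln3, a lysosomal TRP channel, had 31 counts over the controls and 290 over the DAAO libraries, from 0 to 0.943 CPM and from 1.52 to 5.24 CPM, so that the groups did not overlap. At a log2 fold change of 3.22 ± 0.90 (SE) it missed the threshold with edgeR (adjusted p = 0.137) and passed with DESeq2 (3.25, adjusted p = 0.00707). DESeq2 was the only 1 of 27 alternatives in which Mcoln3 passed. Trpm6, a magnesium channel, stood at 2.89 ± 1.44 and 4.99 ± 0.943 CPM (adjusted p = 0.423) and Pkd2, a channel of cilia, at 43.9 ± 10.2 and 56.6 ± 12.5 CPM (adjusted p = 0.503). Trpm2, the TRP channel that peroxide opens through ADP-ribose, was chosen for that role after its values were seen; it had medians of 27.6 CPM in controls and 23.2 in DAAO and a log2 fold change of -0.12 ± 0.17 (SE, edgeR adjusted p = 0.900).

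Of 18 other mechanically gated channels and Piezo modulators 15 were tested and 0 changed with edgeR, DESeq2 or limma-voom, with a median of 0.01 and 1 unadjusted p under 0.05. That gene was Mdfic, whose protein binds Piezo channels, with 17.5 ± 5.86 CPM in controls and 29.1 ± 12.0 in DAAO (log2 fold change 0.73 ± 0.26 SE, edgeR adjusted p = 0.317). Tmem120b and Tmem63a, which encodes a stretch-gated channel, had log2 fold changes of 0.34 and 0.22 (adjusted p = 0.659 and 0.705). Of 16 other acid sensors 11 were tested, 0 rose and 1 fell, and the median was 0.03. The gene that fell was Kcnk1 (log2 fold change -1.02 ± 0.17 SE, edgeR adjusted p = 0.00530), which encodes TWIK1, a potassium channel subunit that responds to acid. It had from 64.2 to 93.3 CPM in controls, with a median of 71.4, and from 26.5 to 52.2 CPM in DAAO, with a median of 32.5. All 6 DAAO libraries lay below all 6 controls, as did those of Asic1, an acid-sensing channel subunit related to Asic3. Asic1 had from 45.7 to 74.6 CPM in controls, with a median of 56.3, and from 29.8 to 45.0 CPM in DAAO, with a median of 38.8. Its log2 fold change of -0.61 ± 0.15 (SE) missed the threshold with edgeR (adjusted p = 0.0762) and passed with DESeq2 (adjusted p = 0.0125). Asic1 also passed with weighted limma-voom and with edgeR without controls 2 and 6, but not with unweighted limma-voom. Gpr65, an acid-sensing receptor of leukocytes, stood at 1.28 ± 0.900 and 2.45 ± 0.844 CPM (adjusted p = 0.537).

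Of 16 TRP modulators and sensitising receptors 15 were tested and 0 changed with edgeR, DESeq2 or unweighted limma-voom, with a median of 0.07 and 1 unadjusted p under 0.05. Ano1, a calcium-activated chloride channel that acts beside TRPV1, had 7.39 ± 2.37 CPM in controls and 4.04 ± 1.89 in DAAO (log2 fold change -0.87 ± 0.33 SE, edgeR adjusted p = 0.337; 0.0370 with limma-voom and sample weights). Bdkrb2, the bradykinin receptor, had a log2 fold change of 0.56 (edgeR adjusted p = 0.580).

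The genes nearest to each member were taken as those with the smallest root mean square difference of centred log2 CPM over the 12 libraries, among 13255 genes. These values describe likeness in libraries that share control 2 and their depth, and carry no test. Near Piezo2 lay Kcnh1 (0.11), a potassium channel, and Scn10a (0.14), the sodium channel of nociceptors. Trpv1 lay nearest to Slc38a7 (0.11), Dgkz (0.14) and Stx2 (0.15), and Trpv2 to Parvb (0.11), Tusc5 (0.12) and Kcna6 (0.12). Asic3 lay nearest to Kcnip3 (0.13), Palm3 (0.21) and C78859 (0.21), and Trpa1 to Zbtb10 (0.15), Spry3 (0.18) and Prkx (0.19). Trpm3 lay nearest to Pdpr (0.18), Usp34 (0.23) and Zbtb20 (0.23). The scarce or variable members had larger differences, in a measure that grows with a gene's own spread. The SD of centred log2 CPM was 1.08 for Trpm8, 0.73 for Trpv4 and 1.13 for Piezo1, and between 0.34 and 0.54 for the other members. Trpm8 came within 0.31 of Rtl9, 0.40 of Syt15 and 0.42 of Kctd16. Trpv4 came within 0.40 of Dynlt1c, 0.41 of Parp14 and 0.41 of Trpa1, and Piezo1 within 0.50 of Pcdhga11, 0.52 of Gjc1 and 0.53 of Zmynd15.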

How the data were processed

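Per the labels' protocols, ganglion RNA was extracted with Trizol and sequenced as paired reads in 12 libraries. The authors deposited whole-number read counts per gene, not normalised, with names, positions and gene lengths. Per the submitters' processing notes, the tools were HISAT2 2.0.5, FastQC and DESeq2 1.20.0, with the mouse builds mm10 and GRCm38. The sources used here do not give the counting program, its strand setting or the annotation release.

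Genes were kept with filterByExpr (minimum count 10, minimum total 15), which left 17002. Counts were scaled by TMM and tested, DAAO against control, in R 4.3.3 by the quasi-likelihood test of edgeR 4.0.16 (robust, two-sided). P-values were adjusted by Benjamini-Hochberg over all 17002 genes, and 0.05 was the threshold. The test was checked on simulated data. The SE of a log2 fold change is its size over the root of F, and log2 CPM used a prior count of 2. Pairs of genes were compared with exact permutation tests over all splits of 6 against 6. Alternatives were other scalings, filters and tools (DESeq2 1.42.0, limma 3.58.1), terms for marker levels, a replicate block and libraries left out.

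The 9 members and all lists were chosen with earlier results of these data known. Named genes were the members, those of each channel list that passed or else its smallest p-values up to 3, and the 3 genes nearest each member (average log2 CPM at least 1); some genes that this rule names are not reported here. Promoter sequences are from RefSeq, build GRCm38.p6; 7 of 9 members had one.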

Additional observations from a re-analysis of the deposited data

How the results depend on the processing

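None of the 9 channel genes passed under any of the 27 alternatives. Piezo1, Trpv1 and Trpv4 stayed positive in all of them. The other 6 changed sign in some. Piezo2 was 0.10 with limma-voom, 0.068 with the replicate block, 0.15, 0.13, 0.21 and 0.27 with the pan-neuronal, oligodendrocyte, fibroblast and macrophage levels as terms, and from -0.22 to 0.10 with each library left out. Trpa1 was -0.10 with weighted limma-voom and -0.19 without controls 2 and 6, and ranged from -0.13 to 0.11 with each library left out. Trpm8 was -0.023 without controls 2 and 6. With each library left out, Trpv2 ranged from -0.0060 to 0.20, Trpm3 from -0.31 to 0.024 and Asic3 from -0.056 to 0.29. With the macrophage level as a term Asic3 was 0.75, Trpv1 0.51, Trpv2 0.43 and Trpm8 0.97. The cause was not tested. The Piezo2 to Piezo1 difference ranged from -1.61 to -1.02 with each library left out and was -1.41 without controls 2 and 6. It passed over the 4 pairs in that setting and without control 2, and in 13 of 15 alternatives it did not. The Trpm8 to Trpv1 difference was -0.068 without controls 2 and 6.

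Over all genes 128 passed, 371 with DESeq2, 295 with weighted limma-voom, 199 with the oligodendrocyte level as a term, 648 without controls 2 and 6, and from 61 to 322 with each library left out (80, 322 and 77 without control 1, 2 or 5, and 78, 65, 73 and 61 without DAAO 1, 2, 3 or 6). Kcnk1 passed in all 27 alternatives (adjusted p from 4.04e-06 to 0.0230). Same-numbered libraries correlated from -0.08 to 0.21 in their deviations from the group means. Of 6 controls 3 correlated best with their own number, so pairing by number was neither shown nor excluded. In the block fit 187 genes passed and Piezo1 was 1.49 (edgeR adjusted p = 0.0933). The blocked Piezo2 to Piezo1 difference had an exact sign-flip p of 0.125 after adjustment. Piezo1 and Trpv4 had as few as 17 and 18 counts in a library, so their counting error was the largest of the members in proportion.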
